A study of Mus musculus with 8 samples.

Results

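The 10 genes Eif2ak3, Atf4, Atf3, Ddit3, Trib3, Chac1, Asns, Xbp1, Hspa5 and Herpud1, which belong to the unfolded protein response and the integrated stress response, were followed in the olfactory mucosa of newborn mice in which the transcription factor gene Emx2 was conditionally deleted in mature olfactory sensory neurons (OSNs). They were chosen by name, and the rows of the value table that were annotated to exactly 1 gene of that symbol were taken. All 10 of 10 were found, with 1 transcript cluster each, among 21789 clusters that name 1 gene. A transcript cluster is the group of probes by which the Affymetrix Mouse Gene array reads a gene.

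The 8 mice were at postnatal day 1 (P1) and shared a mixed 129 x C57BL/6J background. The 4 knockouts were OmpCre:Emx2(fl/fl). The 4 control littermates were of 2 genotypes: OmpCre:Emx2(fl/+) in controls 1 to 3, and Emx2(fl/fl), which lacks Cre, in control 4. Each mouse gave 1 array. OmpCre is a gene-targeted Omp allele that expresses Cre recombinase once OSNs mature, so every mouse with Cre also carries 1 altered copy of Omp, and the stem cells, glands, connective tissue and immature OSNs of the mucosa are not its target. The tissue is a mixture, so fewer cells of a type and less RNA per cell cannot be told apart. Emx2 itself, the labelled target, had signals of 10.25, 10.14, 10.34 and 10.14 in knockouts 1 to 4, against 10.83, 10.74, 10.58 and 10.89 in controls 1 to 4 (log2 signal). Every knockout lay below every control (difference -0.55 ± 0.08 on the log2 scale, SE; limma adjusted p = 0.201).

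When unfolded proteins accumulate in the endoplasmic reticulum (ER), the kinase PERK, encoded by Eif2ak3, phosphorylates the translation initiation factor eIF2α, which lowers protein synthesis in general and raises translation of Atf4. The same step is reached from amino acid shortage, viral RNA and heme deficiency through other kinases, and is then called the integrated stress response. Atf4 activates Atf3, Ddit3, Trib3, Chac1 and Asns, while Xbp1 and Atf6 activate ER chaperones such as Hspa5 and ER degradation genes such as Herpud1. In OSNs, PERK and the Atf4 relative Atf5 are known to take part in the feedback by which an expressed odorant receptor holds its choice. The array reads mRNA abundance, and neither eIF2α phosphorylation, Atf4 translation nor Xbp1 splicing.

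The regulatory sequence of these genes is well studied, and the promoters of 5 of them are shown because the results below turn on these genes. Each is the stretch of 300 bases that runs from 250 bases before to 50 bases after the start of the gene, written 5′ to 3′ on the strand of the gene, from RefSeq on build GRCm38.p6. Capitals mark matches to 3 motifs searched on both strands. The ER stress element (ERSE) was read as CCAAT followed after 9 bases by CCACG, also with up to 1 mismatch in CCACG. ERSE-II was read as ATTGG, 1 base and CCACG. The C/EBP-ATF response element (CARE), to which Atf4 dimers bind, was read as TGATGNAA. The positions are Herpud1 at chr8:94386179-94386478, plus strand, Ddit3 at chr10:127290543-127290842, plus strand, Trib3 at chr2:152344011-152344310, minus strand, Atf3 at chr1:191183284-191183583, minus strand and Hspa5 at chr2:34771840-34772139, plus strand.
Herpud1: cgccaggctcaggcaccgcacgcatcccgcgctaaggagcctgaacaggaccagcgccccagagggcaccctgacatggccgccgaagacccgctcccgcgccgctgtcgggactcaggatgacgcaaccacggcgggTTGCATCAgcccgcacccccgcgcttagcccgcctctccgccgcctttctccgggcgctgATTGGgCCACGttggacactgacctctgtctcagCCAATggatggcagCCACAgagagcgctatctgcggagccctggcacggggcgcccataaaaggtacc
Ddit3: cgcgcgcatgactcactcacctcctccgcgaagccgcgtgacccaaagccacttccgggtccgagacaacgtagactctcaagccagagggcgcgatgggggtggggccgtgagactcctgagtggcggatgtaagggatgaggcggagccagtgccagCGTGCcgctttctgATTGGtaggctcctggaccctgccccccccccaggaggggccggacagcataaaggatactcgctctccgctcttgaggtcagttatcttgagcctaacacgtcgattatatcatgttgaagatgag
Trib3: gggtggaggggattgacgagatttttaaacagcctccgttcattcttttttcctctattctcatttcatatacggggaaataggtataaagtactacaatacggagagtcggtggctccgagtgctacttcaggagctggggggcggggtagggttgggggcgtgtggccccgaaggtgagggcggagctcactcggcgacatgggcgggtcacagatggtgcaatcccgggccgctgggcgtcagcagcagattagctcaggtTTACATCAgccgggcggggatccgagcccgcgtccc
Atf3: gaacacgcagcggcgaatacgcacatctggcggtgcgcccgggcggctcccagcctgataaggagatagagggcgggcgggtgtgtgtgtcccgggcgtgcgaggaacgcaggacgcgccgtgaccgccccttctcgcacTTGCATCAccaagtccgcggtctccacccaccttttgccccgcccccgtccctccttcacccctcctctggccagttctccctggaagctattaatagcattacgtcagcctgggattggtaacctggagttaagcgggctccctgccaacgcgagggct
Hspa5: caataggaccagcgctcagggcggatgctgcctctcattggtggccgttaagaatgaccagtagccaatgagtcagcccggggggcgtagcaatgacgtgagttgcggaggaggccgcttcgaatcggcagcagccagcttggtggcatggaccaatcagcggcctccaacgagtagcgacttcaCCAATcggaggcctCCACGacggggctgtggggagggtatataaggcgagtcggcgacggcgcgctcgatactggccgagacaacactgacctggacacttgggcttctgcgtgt

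An exact ERSE was in the window of 1 of the 10 genes, Hspa5, at bases -65 to -47, where base 0 is the first of the transcript. It occurs in 0.119% of the 32851 mouse promoters of the same length. With up to 1 mismatch allowed the element was also in Ddit3 (-91 to -73, minus strand) and Herpud1 (-18 to 0), against 0.998% of all promoters. ERSE-II, which was searched for after its letters had been seen in this window, was in Herpud1 (-52 to -42) and in 0.0365% of all promoters. CARE was in 5 of the 10, namely Herpud1 (-112 to -105), Atf3 (-110 to -103), Chac1 (-193 to -186), Asns (-23 to -16) and Trib3 (14 to 21), and in 3.97% of all promoters. The cyclic AMP response element TGACGTCA (1.79% of promoters) and the UPR element, read only as TGACGTGG (0.676%), were in none of the 10. The Hspa5 window holds the letters TGACGTGA, which differ in the last base and were not searched for. Herpud1 was the one gene of the 10 that held both a CARE and an ER element. Atf4, Eif2ak3 and Xbp1 held none of these motifs in the window. A match is a run of letters and not a measured site.

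**Figure D1:**
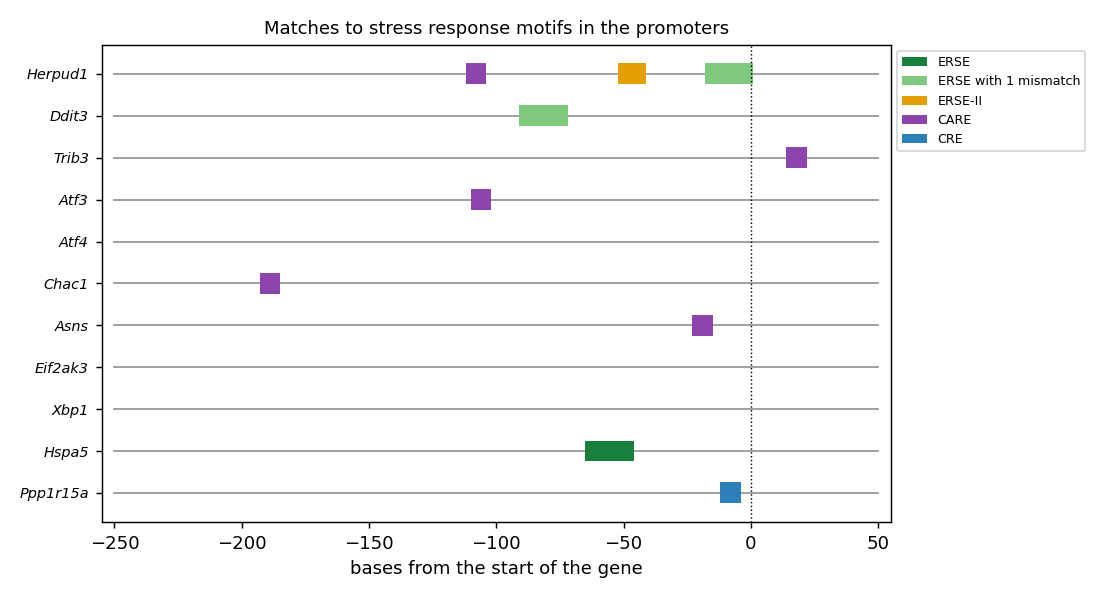
Matches to the motifs along the promoters of the 10 genes and of Ppp1r15a, which is described further on. The horizontal axis is the distance in bases from the start of the gene, each line is 1 promoter window and each coloured block 1 match. CARE appears in 5 of the 10 genes and the exact ERSE in Hspa5.

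None of the 10 genes passed limma's test between knockouts and controls after Benjamini-Hochberg adjustment over all clusters, and none of the 21789 clusters did (0.0%, smallest adjusted p = 0.0653). Ddit3, Herpud1 and Trib3 had an unadjusted p under 0.05, all with the lower mean in knockouts, where 2.55% of all clusters had such a p and were lower. The methods' t-test on the same values also gave 3 genes. In the same 3 genes every knockout lay below every control, as in 1.48% of all clusters. The mean was lower in knockouts for 9 of the 10 genes, against 48.6% of all clusters, and the median difference of the 10 was -0.14 on the log2 scale, against 0.00 over all clusters. Because the genes share regulators and mice, the 10 are not independent of each other.

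Ddit3 encodes CHOP, a transcription factor that ties prolonged ER stress to cell death. Its signal was 9.89, 9.80, 9.89 and 9.92 in knockouts 1 to 4, against 10.04, 10.19, 9.94 and 10.19 in controls 1 to 4. The highest knockout lay 0.02 below the lowest control, so the groups did not overlap, though control 3 stood close to the knockouts. The difference was -0.21 ± 0.06 (SE; 95% interval -0.36 to -0.07; fold 0.863; limma adjusted p = 0.823).

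Herpud1, an ER membrane protein of the machinery that returns misfolded proteins to the cytosol for degradation, followed nearly the same order of mice. Its signal was 11.662, 11.490, 11.540 and 11.596 in knockouts 1 to 4, against 11.727, 11.893, 11.663 and 11.850 in controls 1 to 4. The groups did not overlap, but knockout 1 and control 3 were only 0.0017 apart. Its difference was -0.21 ± 0.06 (SE; 95% interval -0.36 to -0.07; fold 0.864; limma adjusted p = 0.823).

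Trib3, a pseudokinase induced by Atf4 and Ddit3 that in turn restrains them, gave 9.01, 8.85, 8.96 and 9.04 in knockouts 1 to 4, against 9.08, 9.18, 9.06 and 9.33 in controls 1 to 4. The knockouts again lay below the controls by 0.02 at the nearest, with knockout 2 lowest and control 4 highest. The interval of its difference ran from -0.36 to -0.04 (fold 0.871; limma adjusted p = 0.91).

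The tests of these 3 genes changed with the scale of the arrays and with Y-linked signal. The averaged markers of mature OSNs had a difference of -0.06 (per-mouse means of 16 of 16 markers between -0.13 and 0.12 in knockouts and between -0.15 and 0.20 in controls, as deviations from the mean of all mice). The 16 markers include Omp (difference -0.27), of which control 4, the mouse without Cre, carries no altered copy. When the arrays were scaled to these markers, 0 of the 10 genes had an unadjusted p under 0.05, and the differences were -0.15 for Ddit3, -0.15 for Herpud1 and -0.14 for Trib3. This scaling moved each mouse by its own marker mean, so it changed the spread within the groups as well as the differences. The p-values after it reflect both changes, and the part of each was not tested. It raised the difference of every cluster by the same amount, so that 21.8% of all clusters were then lower in knockouts (median difference 0.06). Eif2ak3, Atf4 and Hspa5 were among those that changed sign. Y-linked signal was high in 1 knockout and 3 controls, and low in 3 knockouts and 1 control. With that signal as a covariate 1 of the 10, Herpud1, kept an unadjusted p under 0.05 (difference -0.21). The share of all clusters with such a p was not counted in this fit or after the scaling. Within the mice of high Y-linked signal the difference of Ddit3 was -0.21, that of Herpud1 was -0.26 and that of Trib3 was -0.23, and within those of low signal they were -0.17, -0.14 and -0.12, with no test because 1 mouse stood on one side of each.

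**Figure D2:**
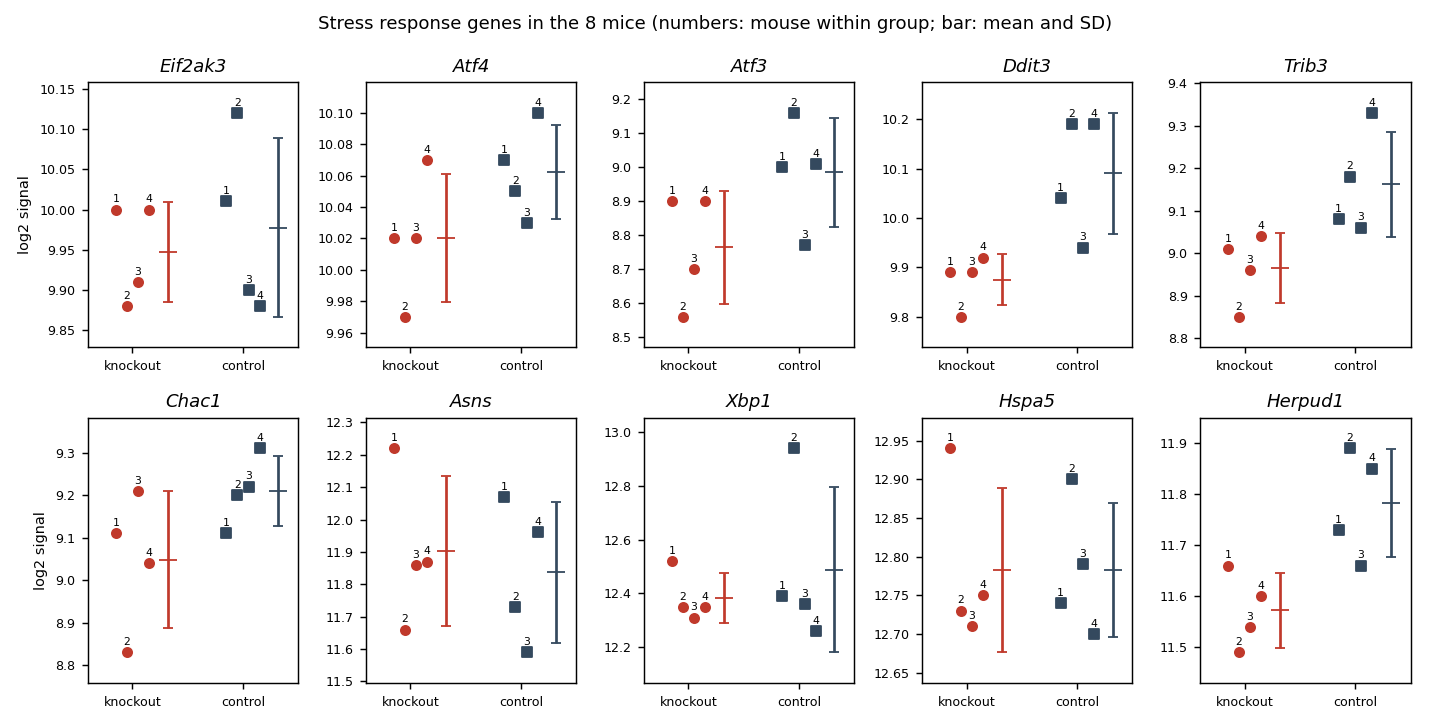
Log2 signal of the 10 genes in each of the 8 mice, knockouts as red circles on the left and controls as blue squares on the right of each panel, with the mean and SD (n = 4 each) as a bar and the number of the mouse above each point. Each panel has its own vertical range. In Ddit3, Herpud1 and Trib3 the 4 knockouts sit below the 4 controls, while in Hspa5 and Asns the groups overlap throughout.

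Upstream of these genes the values were close. Eif2ak3 had 10.003, 9.880, 9.905 and 9.998 in knockouts 1 to 4, against 10.012, 10.117, 9.901 and 9.883 in controls 1 to 4. Knockout 2 and control 4 were the lowest, at nearly the same value, and the difference was -0.03 ± 0.06 (SE; interval -0.17 to 0.11; adjusted p = 0.958 by limma; 0.03 after scaling to mature OSN markers). Atf4, the transcription factor in the middle of the pathway, was the steadiest of the 10, with 10.02, 9.97, 10.02 and 10.07 in knockouts 1 to 4, against 10.07, 10.05, 10.03 and 10.10 in controls 1 to 4. The difference was -0.04 ± 0.04 (SE; interval -0.13 to 0.05; 0.02 after scaling to mature OSN markers), and its within-group SD of 0.036 lay at the 3.6th percentile of all clusters. Its mRNA spread over a range of only 0.13 in the 8 mice.

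The remaining targets of the Atf4 arm were Atf3 and Chac1, with the lower mean in knockouts, and Asns, with the higher. The interval of each included 0. Atf3, a factor that both stress and neuronal activity induce, had 8.895, 8.557, 8.701 and 8.899 in knockouts 1 to 4, against 9.005, 9.165, 8.773 and 9.005 in controls 1 to 4. Its difference of -0.22 ± 0.10 (SE; interval -0.46 to 0.01; limma adjusted p = 0.91) was the largest of the 10 in size on the deposited scale, and control 3 was the 1 control that fell among the knockouts. Chac1, an enzyme that degrades glutathione, had 9.11, 8.83, 9.21 and 9.04 in knockouts 1 to 4, against 9.11, 9.20, 9.22 and 9.31 in controls 1 to 4. The groups of Chac1 overlapped, and its difference was -0.16 ± 0.08 (SE; interval -0.35 to 0.03) but -0.09 without knockout 2 and -0.06 with Y-linked signal as a covariate.

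Asns, which makes asparagine and is a standard Atf4 target in amino acid shortage, was the 1 gene with the higher mean in knockouts. It had 12.22, 11.66, 11.86 and 11.87 in knockouts 1 to 4, against 12.07, 11.73, 11.59 and 11.96 in controls 1 to 4. Its spread within the groups lay at the 90.5th percentile of all clusters, and its difference of 0.07 ± 0.14 (SE; interval -0.24 to 0.38) turned to -0.04 without knockout 1, to -0.02 without control 3 and to -0.04 with Y-linked signal as a covariate.

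The ER genes other than Herpud1 gave no separation. Hspa5 encodes BiP, the chaperone that holds the ER sensors inactive, and had 12.94, 12.73, 12.71 and 12.75 in knockouts 1 to 4, against 12.74, 12.90, 12.79 and 12.70 in controls 1 to 4. Its high mice were knockout 1 and control 2, and the difference was -0.0003 ± 0.0653 (SE; interval -0.15 to 0.15), with a sign that turned under several settings. Xbp1, the transcription factor of the IRE1 arm, had 12.52, 12.35, 12.31 and 12.35 in knockouts 1 to 4, against 12.39, 12.94, 12.36 and 12.26 in controls 1 to 4. Control 2 stood above all the others, and the difference of -0.11 ± 0.14 (SE; interval -0.42 to 0.21) became 0.04 without that mouse.

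**Figure D3:**
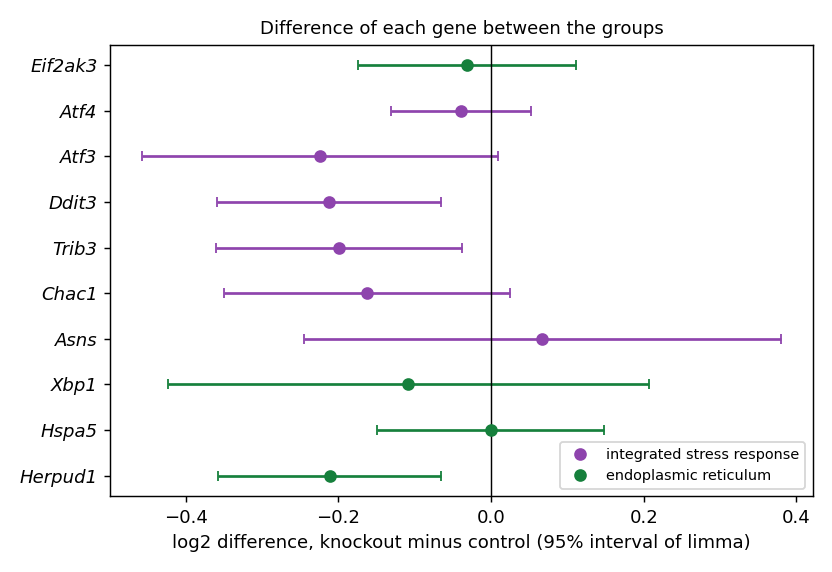
Difference between 4 knockouts and 4 controls for each gene on the log2 scale (points), with the 95% interval of the limma fit (bars). Purple marks genes grouped with the integrated stress response and green those of the ER. The intervals of Ddit3, Trib3 and Herpud1 lie below 0 and those of the other 7 include it; scaling to the mature OSN markers, which raises every cluster alike, put Eif2ak3, Atf4 and Hspa5 above 0.

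Control 2 stood apart on the whole array. The first principal component, with 32.5% of the variance, put it at 32.87 and the other mice between -11.83 and 6.11. Its mean over 14 of 14 immune cell markers was 0.91 as a deviation from the mean of all mice, where the knockouts lay between -0.26 and -0.04 and the other controls between -0.20 and -0.11. Gland markers were 0.27 in this mouse and markers of dividing progenitors -0.46. Leaving it out gave differences of -0.18 for Ddit3, -0.18 for Herpud1 and -0.19 for Trib3, and 6 of the 10 genes then had the lower mean in knockouts. Without control 4, so that every mouse carried Cre, the differences were -0.18 for Ddit3, -0.19 for Herpud1 and -0.14 for Trib3. In that case 9 of the 10 had the lower mean. Over the groups, markers of dividing progenitors (8 of 10 measured) differed by 0.22 (per-mouse means of 0.04 to 0.23 in knockouts and -0.46 to 0.09 in controls), those of bone and cartilage (8 of 10) by 0.29 (-0.10 to 0.35 in knockouts and -0.42 to 0.19 in controls) and those of immune cells by -0.21, with ranges that overlapped. These differences are as large as those of the stress genes. The part of these cell types in the values was not tested.

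Across the 8 mice many of the 10 genes varied together. Over the 45 pairs the median Pearson r was 0.424, against 0.01 over all pairs of the 21789 clusters, and 42 pairs were positive. An r over 0.5 was reached by 48.9% of the pairs of stress genes and by 12.8% of all pairs. With each group centred on its own mean the median was 0.513, against 0.02 over all pairs, and 39 pairs were positive. After Benjamini-Hochberg adjustment over the 45 pairs, 6 had an exact permutation p under 0.05 over the 8 mice, and 0 had one within the groups. There 8 pairs had an unadjusted exact p under 0.05 and the smallest adjusted one was 0.167. The exact permutation p could not fall below 0.001736 within the groups, against 2.48e-05 over the 8 mice. Within the groups no pair could thus pass the adjustment alone, however high its r, so these counts of pairs cannot be compared. Scaling the arrays to the mature OSN markers gave the stress genes a median r of 0.688 and all pairs of clusters one of 0.67. The median r of the stress genes was 0.263 without knockout 2 and 0.62 without control 4.

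Ddit3 and Herpud1 were the closest pair. Their r was 0.96 (exact two-sided permutation p = 3.47e-04, adjusted p = 0.00781) and Spearman's rho 0.905 (exact permutation p = 0.00456, adjusted p = 0.034). Without control 2 and control 4, the mice farthest from the median of Ddit3, r was 0.862. Within the groups r was 0.889 (exact permutation p = 0.026, adjusted p = 0.167). Both genes were lowest in knockout 2 and highest in controls 2 and 4.

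Ddit3 and Trib3, which is a target of Ddit3, had an r of 0.935 (exact permutation p = 7.44e-05, adjusted p = 0.00335) and a rho of 0.976 (exact permutation p = 3.97e-04, adjusted p = 0.018). The r was 0.902 without controls 2 and 4, and 0.849 within the groups (exact permutation p = 0.023, adjusted p = 0.167). Atf3 and Herpud1 came next, with an r of 0.912 (exact permutation p = 0.00159, adjusted p = 0.018), a rho of 0.905, 0.788 without knockout 2 and control 2, and 0.883 within the groups (exact permutation p = 0.012, adjusted p = 0.167).

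At the other end, Atf4 and Hspa5 had an r of -0.126 (exact permutation p = 0.763, adjusted p = 0.926), a rho of -0.262 and an r of -0.316 without knockout 2 and control 4. Asns and Xbp1 had an r of -0.077 (exact permutation p = 0.865), a rho of 0.119 and an r of -0.401 without knockout 1 and control 3, while without control 2 it was 0.515. Neither relation passed the test.

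A grouping that was drawn after the correlations were seen, and so has no test, gave 2 sets, with Chac1 and Asns in neither. Atf4, Atf3, Ddit3, Trib3 and Herpud1 had r values of 0.694 to 0.96 among their 10 pairs (median 0.861), and 0.519 to 0.889 within the groups. Eif2ak3, Xbp1 and Hspa5 had 0.673 to 0.855 among their 3 pairs (median 0.762), and 0.686 to 0.849 within the groups. The 15 pairs between the sets had a median of 0.326, with a range of -0.126 to 0.748, and within the groups a median of 0.364, with a range of -0.179 to 0.811 that reaches into the values of both sets. Herpud1, an ER degradation gene, had an r of 0.96 with Ddit3 and of 0.326 with the chaperone Hspa5 (0.889 and 0.542 within the groups), and the difference between them was not tested. Chac1 tracked Trib3 (0.788, but 0.15 without knockout 2 and control 4) and the r of Asns with the 9 others was at most 0.373. Within the groups Asns reached 0.596 with Atf3, 0.561 with Atf4 and 0.506 with Herpud1, and without control 2 it had 0.688 with Eif2ak3 and 0.675 with Atf3.

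The second set, and its links to the first, leaned on control 2. Without that mouse the r of Eif2ak3 and Xbp1 was 0.677 in place of 0.855, that of Eif2ak3 and Hspa5 0.499 in place of 0.673, and that of Ddit3 and Xbp1 -0.425 in place of 0.424. Xbp1 and Hspa5 had 0.916 without it and 0.762 with it. The r of Ddit3 and Herpud1 was 0.939 without control 2. Several low values between the sets leaned on control 4, the mouse without Cre. Without control 4 the r of Ddit3 and Xbp1 was 0.803, and that of Eif2ak3 and Ddit3 was 0.844 in place of 0.409. Herpud1 then had 0.858 with Xbp1 in place of 0.544, and 0.626 with Hspa5 in place of 0.326. Atf4 stayed low, with 0.228 for Xbp1 and 0.098 for Hspa5. The split into 2 sets thus depended on single mice.

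**Figure D4:**
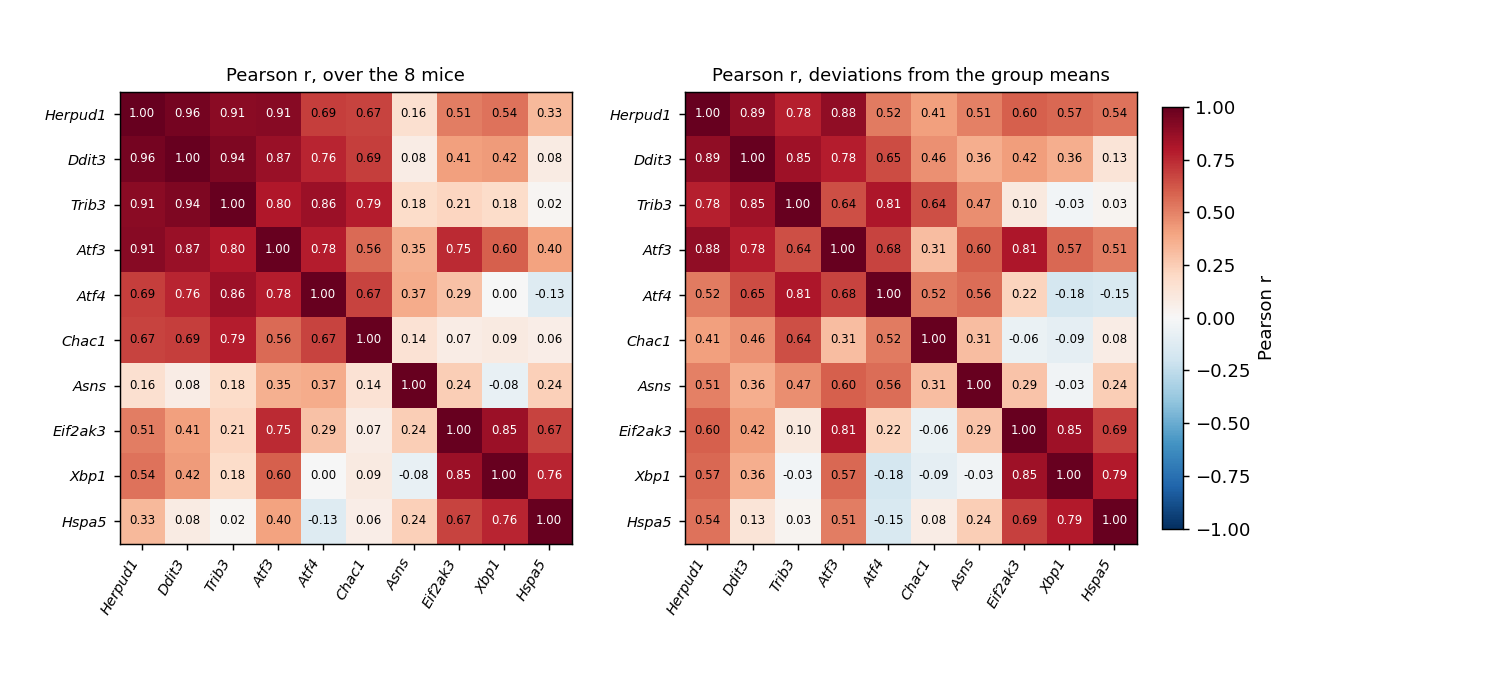
Pearson r between the 10 genes over the 8 mice (left) and with each group centred on its mean (right), on a colour scale from -1 (blue) to 1 (red). Herpud1, Ddit3, Trib3, Atf3 and Atf4 form a block of high values (median 0.861 on the left) and Eif2ak3, Xbp1 and Hspa5 a smaller one (median 0.762).

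Among the 21788 other clusters the one most like Ddit3 was Ppp1r15a (r = 0.983 over the 8 mice, 0.957 within the groups). It encodes GADD34, the subunit that directs a phosphatase to eIF2α and so ends the response. Ppp1r15a had 10.08, 10.01, 10.12 and 10.12 in knockouts 1 to 4, against 10.24, 10.49, 10.16 and 10.40 in controls 1 to 4. Every knockout was below every control, with the same 2 high controls as Ddit3 (difference -0.24 ± 0.07, SE; limma adjusted p = 0.855). Both traits go with its choice by r with Ddit3 over the same mice, and are no separate evidence. Next were Slco4a1, an organic anion transporter (r = 0.97), and Herpud1 (0.96). Trib3 ranked 11th, Atf3 125th and Atf4 485th. An r this high is usual for the nearest of so many clusters. Over the 10 stress genes the r of the nearest cluster ran from 0.947 (Atf4) to 0.992 (Chac1). The promoter of Ppp1r15a, in the same window as above, held no ERSE and no CARE but a cyclic AMP response element at bases -12 to -5.

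The clusters most like Hspa5 were Sgsh, a lysosomal enzyme of heparan sulfate breakdown (r = 0.971), Mlph, a linker of granule transport (0.969), and Rasgrp1, an activator of Ras (0.952). Of the 10 stress genes Xbp1 was the nearest to Hspa5, at rank 471. For Xbp1 the nearest cluster, looked at after its value was seen, was Pigr (r = 0.983), the receptor that carries immunoglobulins across secretory epithelia. Pigr had 9.24, 8.01, 8.10 and 8.66 in knockouts 1 to 4, against 9.11, 12.21, 8.45 and 7.93 in controls 1 to 4. Control 2 was far above all others in Pigr and the highest in Xbp1.

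**Figure D5:**
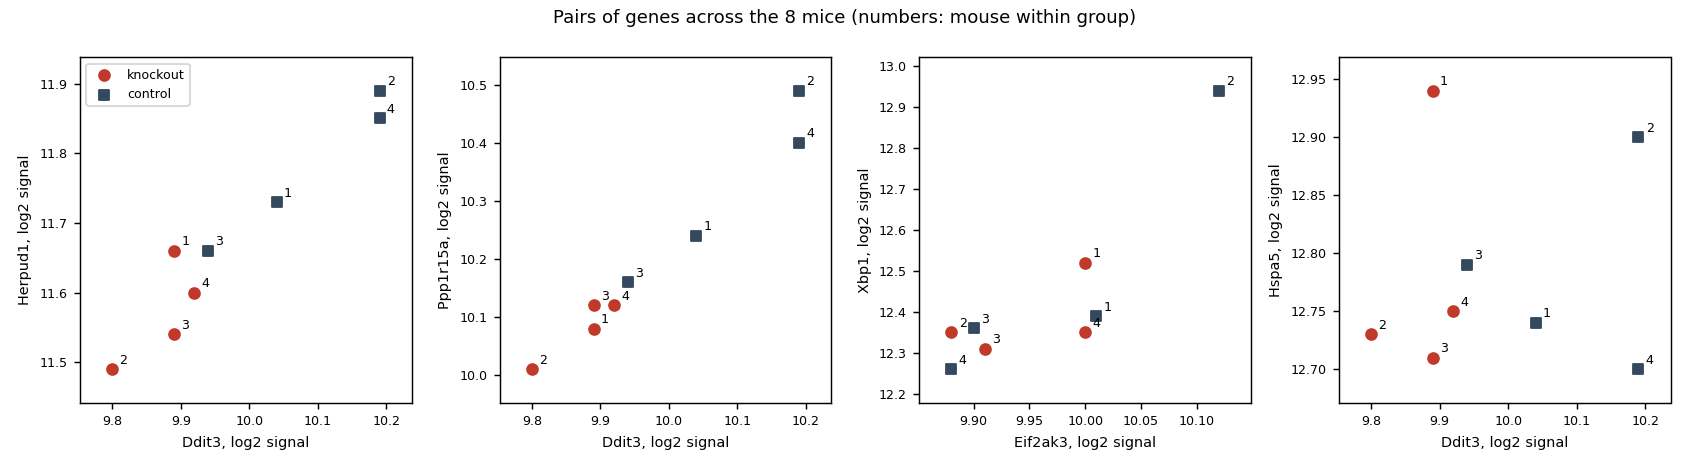
Log2 signals of 4 pairs of genes in the 8 mice, knockouts as red circles and controls as blue squares numbered within the group. Ddit3 against Herpud1 (r = 0.96) and Ddit3 against Ppp1r15a (r = 0.983) run along a line through both groups, Eif2ak3 against Xbp1 (r = 0.855) is drawn out by control 2, and Ddit3 against Hspa5 (r = 0.081) shows no line.

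Other genes of the pathways were counted in lists of 146 genes, of which 131 were measured. None passed the adjusted test, 10 had an unadjusted p under 0.05 with the lower mean in knockouts and 0 with the higher, against 2.55% lower and 2.62% higher of all clusters. The mean was lower in 82 and higher in 49 (62.6% lower, against 48.6% of all clusters), and the median difference was -0.03. After scaling to the mature OSN markers 46 of the 131 were lower, or 35.1% against 21.8% of all clusters, and 0 of those had such a p. The count of 10 was 2 with Y-linked signal as a covariate, 3 without knockout 2, 5 without knockout 4, 5 without control 2 and 4 without control 4. The share of all clusters at that p was not counted under these settings or after the scaling. A change in the listed genes therefore cannot be told from a change in all clusters.

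The ER sensors and their processing enzymes were lower in 6 of 7 (median -0.06), against 48.6% of all clusters. After scaling to the mature OSN markers 5 of 7 were lower, against 21.8% of all clusters. The smallest p was at Atf6b, a relative of the sensor Atf6 (-0.09 ± 0.06, SE). Of 14 genes around eIF2, 4 were lower and 10 higher, and 3 were lower after that scaling. They comprise the other eIF2α kinases, regulators of kinase and phosphatase, eIF2 subunits and the exchange factor eIF2B. The 2 with an unadjusted p under 0.05 were the phosphatase subunits Ppp1r15a and Ppp1r15b (-0.12 ± 0.05, SE). Of 20 ER folding genes 12 were lower (9 of 20 without control 2; 5 of 20, or 25%, after scaling to the mature OSN markers, near the 21.8% of all clusters), with the smallest p at Dnajb9, an ER co-chaperone of Hspa5 (-0.16 ± 0.06, SE). All 13 measured ER degradation genes had the lower mean, but by a median of only -0.01, and 8 of 13 did without control 1 or without knockout 3. After scaling to the mature OSN markers 1 of 13 was lower. Edem2, which trims sugars from misfolded glycoproteins, had the smallest p there (-0.06 ± 0.04, SE). None of these genes passed the adjusted test.

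Amino acid genes under Atf4 were lower in 8 of 18, against 48.6% of all clusters. After scaling to the mature OSN markers 6 of 18 were lower, against 21.8% of all clusters. The amino acid transporter Slc7a5 was the 1 of the 18 with an unadjusted p under 0.05 (-0.13 ± 0.05, SE). Aminoacyl-tRNA synthetases, which Atf4 also activates, were lower in 7 of 15 (1 of 15 after scaling to the mature OSN markers), with the smallest p at Rars, the arginine enzyme (0.11 ± 0.07, SE). The median difference was 0.01 in the amino acid list and 0.0009 in the synthetases, beside the -0.21 of Ddit3.

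Other stress effectors were lower in 12 of 14 (median -0.09), against 48.6% of all clusters, and in 9 of 14 without control 3 or without knockout 3. After scaling to the mature OSN markers 9 of 14 were lower, against 21.8% of all clusters. Ddit4, an inhibitor of growth signaling through mTOR, had the smallest p of all listed genes, with 9.50, 9.48, 9.54 and 9.42 in knockouts 1 to 4, against 9.81, 9.78, 9.65 and 9.63 in controls 1 to 4. The groups did not overlap (-0.23 ± 0.06, SE; limma adjusted p = 0.641). Atf5, the Atf4 relative of the receptor feedback, had 11.06, 11.13, 11.27 and 11.15 in knockouts 1 to 4, against 11.28, 11.29, 11.23 and 11.42 in controls 1 to 4. Knockout 3 lay above control 3, so its groups overlapped (-0.15 ± 0.06, SE; limma adjusted p = 0.91).

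Immediate early genes, which cells switch on soon after activity or stress, were lower in 12 of 12 (median -0.16), against 48.6% of all clusters. After scaling to the mature OSN markers 9 of 12 were lower, against 21.8% of all clusters. Without control 2, 11 of 12 were lower. Dusp1, a phosphatase of MAP kinases, showed every knockout below every control (-0.33 ± 0.10, SE; limma adjusted p = 0.794), while Btg2 (-0.13 ± 0.05, SE) and Egr2 (-0.19 ± 0.08, SE) overlapped. The mean of the list was -0.02, -0.14, -0.12 and -0.03 in knockouts 1 to 4, against -0.01, 0.26, -0.01 and 0.07 in controls 1 to 4, as deviations from the mean of all mice. The mean of the 6 genes grouped with the integrated stress response was 0.03, -0.22, -0.05 and -0.02 in knockouts 1 to 4, against 0.07, 0.09, -0.06 and 0.15 in controls 1 to 4. Both were lowest in knockout 2, and the part of immediate early induction in the stress genes was not tested.

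Cytosolic heat shock genes were lower in 4 of 10, against 48.6% of all clusters, with the smallest p at Hspb1 (-0.17 ± 0.08, SE). Oxidative stress genes were lower in 4 of 8, where Srxn1, which repairs oxidized peroxiredoxins, had -0.11 ± 0.04 (SE, limma adjusted p = 0.91) and no overlap between the groups. After scaling to the mature OSN markers 4 of 10 heat shock and 3 of 8 oxidative stress genes were lower, against 21.8% of all clusters.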

How the data were processed

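Total RNA of the olfactory mucosa of 8 mice was hybridised by the authors to Affymetrix Mouse Gene ST arrays. The authors deposited 1 log2 signal for each transcript cluster and array, processed with Affymetrix Expression Console. The summarization and normalization settings are not given in the sources used here. Array medians ran from 8.64 to 8.68, and correlations between arrays from 0.985 to 0.994. The number of arrays, 4 per group, limits the precision. Probe signals are not comparable between genes, so levels were compared only between mice. Of 35557 clusters, 21789 name 1 gene, 1621 several and 12147 none in the platform annotation; for a gene with several clusters the brightest was used.

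Groups came from the phenotype labels, knockout or control littermate. The log2 values were fitted with limma 3.58.1 (lmFit and eBayes, R 4.3.3; checked on simulated data), with Benjamini-Hochberg adjustment over all 21789 clusters at 0.05. Correlations used exact permutation over 40320 pairings, and 576 within groups (scipy 1.17.1), two-sided. Alternatives were scaling to mature OSN markers, quantile normalization, array weights, a filter on dim clusters, Y-linked signal as a covariate, the methods' t-test, the mean over clusters and leaving out each mouse. The genes and lists were chosen with earlier results of these data known. Named in the text are the 10 genes, Emx2, Atf5, the gene of smallest p in each list, with at most 2 others at an unadjusted p under 0.05, the 3 highest and 2 lowest pairs, and the 3 clusters nearest to Ddit3 and Hspa5; Pigr and the further pairs were added after their values were seen. Sex, inferred from Y-linked signal, and litters are not in the labels. The limma p-values set a difference between groups against the spread between the mice within them. Those of the correlations compare r with its values after the mice are re-paired. Both treat the mice as independent, which mice of a shared litter may not be.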

Additional observations from a re-analysis of the deposited data

Results flagged for a closer look

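Of 60 sets of 4 mice checked, 2 held a mouse whose gap to its nearest neighbour, as a share of the range, was above Dixon's 95% critical value, and chance gives about 1 in 20. Control 4, the 1 mouse without Cre, had an Atf6b signal of 10.70, above the 3 other controls at 10.53 to 10.56 (gap over range 0.842). Control 3 had a Btg2 signal of 10.48, below the 3 other controls at 10.61 to 10.64, only just past the critical value. No such mouse was found among the 10 stress genes.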

How the results depend on the processing

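No paired analysis was possible because the replicate numbers follow accession order and the labels name no litters. None of the 10 stress genes passed the adjusted test under any alternative run. For the counts at an unadjusted p, the share of all clusters was counted only in the main fit. Scaling to the mature OSN markers moved each mouse by its own marker mean and raised every cluster's difference alike (median over all clusters 0.0606). It left 0 stress genes and 0 listed genes lower at an unadjusted p under 0.05 with limma and with the methods' t-test. With limma 1 listed gene was higher at that p. The median pairwise r was then 0.688 (0.67 over all pairs of clusters). The differences of Eif2ak3 (0.0267), Atf4 (0.0186) and Hspa5 (0.0579) reversed with both tests. Array weights gave 1 listed gene higher and reversed Hspa5 (0.0106). Clusters above the median signal of 9.17 left 7 stress genes, with a median difference of -0.0396 in place of -0.1356. The filter dropped Atf3, Trib3 and Chac1 as dim clusters. Y-linked signal as a covariate left 1 stress gene and 2 listed genes lower at that p, and reversed Asns (-0.0382). Within the mice of low Y-linked signal, an alternative added after the data were seen, Asns (-0.1503), Xbp1 (0.0095) and Hspa5 (0.0661) reversed. Leaving out each mouse gave 2 to 4 stress genes at that p, 3 to 13 listed genes lower and 0 to 1 higher, a median difference of the stress genes between -0.17 and -0.09, a median r of 0.263 to 0.62, and differences of -0.0515 to 0.0372 for Hspa5, -0.0374 to 0.1482 for Asns, -0.0633 to 0.0146 for Eif2ak3 and -0.1857 to 0.0417 for Xbp1. Ddit3 and Herpud1 were lower in 16 of 16 alternatives, and Atf3, Trib3 and Chac1 in the 15 that kept them. Many of these alternatives could not change the sign. The methods' t-test, the mean over clusters and the filter on dim clusters leave the difference of a kept gene as it is. Leaving out a mouse cannot turn the sign in Ddit3, Herpud1 and Trib3, whose groups do not overlap. The counts are therefore no measure of robustness.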
